A study of Mus musculus with 4 samples.

Results

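The contractile actin genes and targets of serum response factor (SRF) examined here were Acta2, Actg2, Tagln, Cnn1, Cnn2, Myl9, Tpm1, Tpm2, Cald1 and Srf itself. They were chosen by gene name, and all probes that carry 1 of these 10 names were used, which gave 19 of the 41174 non-control probes and 28 of the 43379 non-control spots on an array. The RNA came from 3T3-L1 cells, a clonal mouse line of preadipocytes, harvested on day 2 of differentiation. All cultures had received the same initiation medium with insulin, dexamethasone and IBMX, and they differed in the additive: 0.1% DMSO as the vehicle control, bilberry extract at 100 μg/mL, delphinidin at 100 nM or cyanidin at 100 nM. The additives had been dissolved in DMSO, so the vehicle was common to all 4 cultures. There was 1 Agilent Whole Mouse Genome array, with 1 dye, for each condition. The question these arrays address is how early gene expression differs between cells that differentiate with and without the extract or its anthocyanidins.

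Smooth muscle α-actin and γ-actin, transgelin, the calponins, myosin light chain 9, the tropomyosins and caldesmon build or decorate actin stress fibers. Many of their genes carry a CArG box, the motif that SRF binds, and SRF acts there with myocardin-related cofactors that are held in the cytoplasm by monomeric actin and released when actin filaments form. In preadipocytes the stress fibers are taken apart as the cells round up and become adipocytes, and actin polymerization is known to restrain adipogenesis.

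The RefSeq promoter table for GRCm38.p6 held 8 of the 10 genes, with 9 promoters. Tagln and Actg2 were not matched. A CArG box was searched in the 250 bases before the start site, as exactly 10 letters: CC, then only A or T, then GG. The motif is its own reverse complement, so both strands are covered by 1 search. No other motif was searched, nor a form with a G or C among the middle letters. The promoters of Srf, Cnn2 and Myl9 held it. The last 200 bases before the start of these 3 genes are shown because they carry the motif that names the gene group. They are written 5′ to 3′ on the strand of the gene, with the CArG box in capitals.
Srf, chr17:46556163-46556362, minus strand: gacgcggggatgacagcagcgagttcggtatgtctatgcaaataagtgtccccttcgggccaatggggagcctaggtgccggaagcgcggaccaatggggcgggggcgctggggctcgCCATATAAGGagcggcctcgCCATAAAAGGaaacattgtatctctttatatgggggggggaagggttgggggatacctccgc
Cnn2, chr10:79988400-79988599, plus strand: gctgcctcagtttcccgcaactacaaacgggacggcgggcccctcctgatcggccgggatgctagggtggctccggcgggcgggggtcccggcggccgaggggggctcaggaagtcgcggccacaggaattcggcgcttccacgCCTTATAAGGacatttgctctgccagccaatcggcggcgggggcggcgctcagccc
Myl9, chr2:156775264-156775463, plus strand: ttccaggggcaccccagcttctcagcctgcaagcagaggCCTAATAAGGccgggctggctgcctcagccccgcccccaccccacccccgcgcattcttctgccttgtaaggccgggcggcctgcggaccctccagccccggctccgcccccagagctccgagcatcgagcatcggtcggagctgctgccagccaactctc

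The Srf promoter held 2 CArG boxes, whose first bases lay 82 and 62 bases before the start. The box of Cnn2 began 56 bases before its start and that of Myl9 161 bases before. Over all promoters of the table, 482 of 32851 held the motif in this window, which is 1.47%. The match is a description of these letters, and the promoters of Acta2, Cnn1, Tpm1, Tpm2 and Cald1 did not hold them in this window. Forms with a G or C in the middle were not searched, so these promoters are not said to lack a CArG box. The arrays measured RNA and not SRF binding.

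With 1 array per condition, the differences between conditions have no replicates behind them and no test was made, so precision is limited by how few arrays there are. All 3 ratios to DMSO also share the same DMSO array. Each spot's processed signal was taken relative to the array's 75th percentile, which was 861 under DMSO, 576 under bilberry, 1009 under delphinidin and 1016 under cyanidin. Levels are log2 of this scaled signal and ratios are differences of levels, also on the log2 scale. The scanner software gives each signal an error, mostly set by a preset multiplicative error of 10%, and this came to about 0.20 for the ratio of a bright probe. It is not a replicate error. The arrays shared a slide and a scan. The bilberry array stood apart in that its 10 spike-in control RNAs, added at labeling, read 0.95 higher than on the DMSO array before scaling, against -0.03 for delphinidin and -0.00 for cyanidin. Scaling to these controls in place of the 75th percentile subtracts 1.53 from every bilberry ratio and adds 0.26 to every delphinidin ratio and 0.24 to every cyanidin ratio, so bilberry ratios between 0 and 1.53 turn below 0 under it. Unless another setting is named, values are those after 75th percentile scaling. A ratio of a bulk culture cannot tell fewer cells that express a gene from less RNA per cell.

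By the software's own test, 16 of the 19 probes stood well above background on all 4 arrays, 1 on the cyanidin array only, and 2 on none. Among the 16, the software had marked the only spot of Myl9 and of 1 Tpm2 probe on some array. The other 14 had unmarked spots on every array, though for the Acta2 probe printed 10 times these were 9 with delphinidin and 9 with cyanidin. No spot was saturated. With bilberry, Tagln was 2.50-fold higher than with DMSO after 75th percentile scaling (1.32 on the log2 scale, 0.78 under normexp background correction with an offset of 50 and -0.21 with spike-in scaling), past the 2-fold threshold used here. Both of those settings end this call. The background mean of that normexp fit was -345 on the bilberry array. It was -5.65 when normexp was refitted without marked backgrounds, and Tagln was then at 1.31. No other probe of the 10 genes was over 2-fold higher, against 6.49% of all 39373 probes with a value (4.29% of those well above background on both arrays). A second Tagln probe was past 2-fold lower, but it was not above background on either of those arrays, and among all probes 7.41% were past 2-fold lower (6.97% of those above background). With delphinidin and with cyanidin, none of the 19 probes passed 2-fold in either direction. The background was 2.64% higher and 4.26% lower for delphinidin (1.08% and 1.86% above background) and 2.18% higher and 5.23% lower for cyanidin (0.588% and 2.25%). The number of probes past 2-fold was thus near or under the background in all 3 comparisons.

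**Figure D1:**
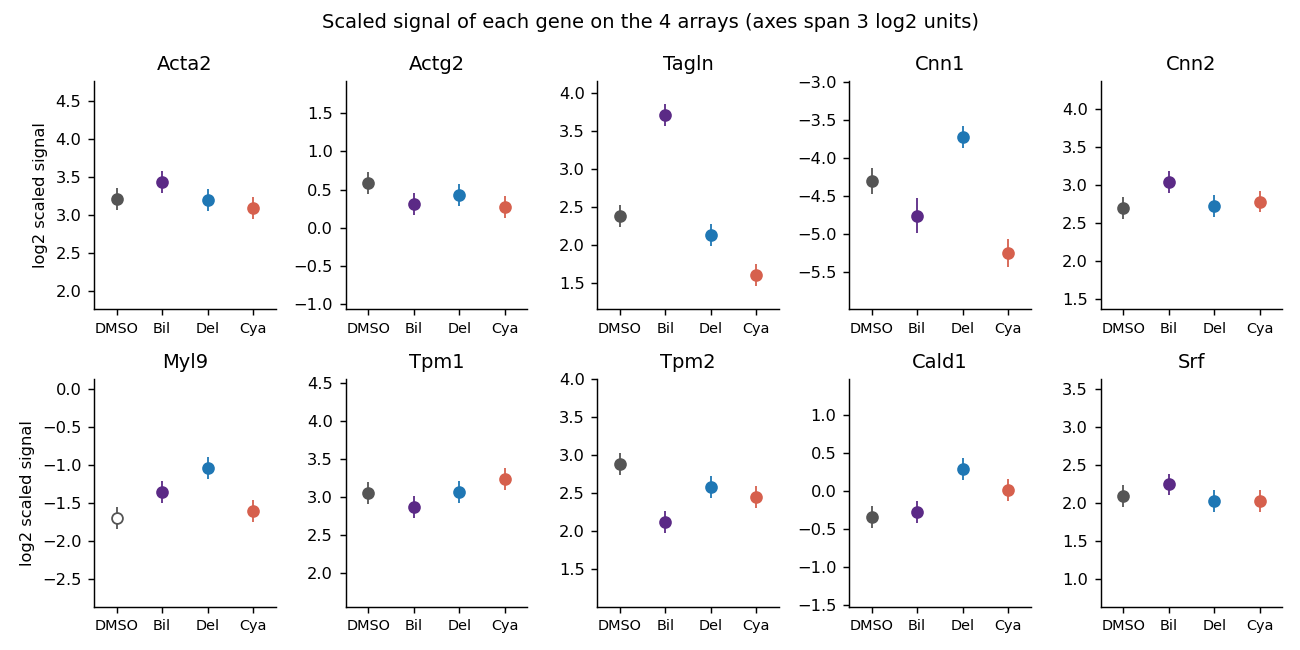
Level of each of the 10 genes by its brightest probe on the DMSO, bilberry (Bil), delphinidin (Del) and cyanidin (Cya) arrays, as log2 of the signal over the 75th percentile of the array; bars show the scanner software's error, and the open circle is a spot that the software marked. Tagln spanned 2.10 log2 units with its high point on the bilberry array (-0.21 against DMSO with spike-in scaling), and Cnn1 spanned 1.53 with its high point on the delphinidin array.

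The genes did not share an order of the 4 conditions. By brightest probe after 75th percentile scaling, with the marked spot of Myl9 kept here and in the signs that follow, 4 genes had their highest level with bilberry, 3 with delphinidin, 2 with DMSO and 1 with cyanidin. With spike-in scaling the array with the highest level, over the 9 genes with unmarked values, was delphinidin for 6, cyanidin for 2, DMSO for 1 and bilberry for 0. After 75th percentile scaling the lowest level was with cyanidin for 4 genes, DMSO for 3, bilberry for 2 and delphinidin for 1. Ratios lay above 0 in all 3 treatments for Cnn2, Myl9 and Cald1 and below 0 in all 3 for Actg2 and Tpm2. With spike-in scaling the bilberry ratios of Cnn2 and Cald1 turn below 0, as by construction does that of Myl9, and the delphinidin ratio of Actg2 turns above 0.

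Acta2, the smooth muscle α-actin of stress fibers, was read by 5 probes, and 3 of them passed the background test on all arrays. The brightest, listed on mm8 at chr19:34314502-34317756, gave processed signals of 7920 under DMSO, 6192 under bilberry, 9198 under delphinidin and 8646 under cyanidin. After scaling, the levels were 3.20, 3.43, 3.19 and 3.09 in that order. The ratios to DMSO were 0.22 under bilberry, -0.01 under delphinidin and -0.11 under cyanidin, each about as large as the software's error or smaller. Spike-in scaling changes the sign of all 3, to -1.30, 0.25 and 0.13. The bilberry ratio also turns to -0.37 under normexp with an offset of 50, but is 0.16 under the refitted normexp.

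A second Acta2 probe, at chr19:34307567-34307626, was printed 10 times on each array between rows 92 and 510, so its value does not rest on 1 spot. Mean signals were 2343 under DMSO, 2267 under bilberry, 3655 under delphinidin and 2549 under cyanidin. The levels were 1.44 ± 0.046 (SD over 10 spots) with DMSO, 1.98 ± 0.043 (10 spots) with bilberry, 1.86 ± 0.034 (9 unmarked spots) with delphinidin and 1.33 ± 0.037 (9 unmarked spots) with cyanidin. The unmarked spots of the bilberry and delphinidin arrays all lay above those of DMSO and cyanidin. Spot by spot, the ratio to DMSO ran from 0.48 to 0.58 with bilberry, from 0.36 to 0.45 with delphinidin and from -0.16 to -0.08 with cyanidin. This spread covers spots on an array and not cultures, and with spike-in scaling the bilberry ratio becomes -0.996 and the cyanidin ratio 0.13.

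**Figure D2:**
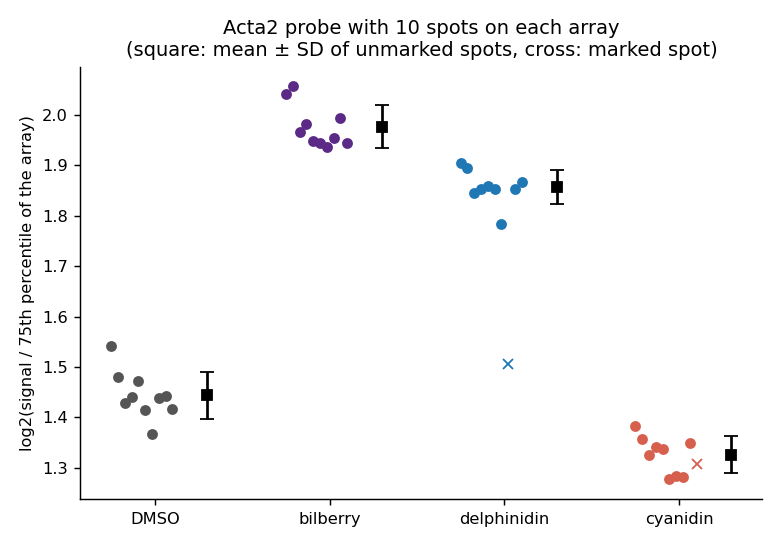
Level of the Acta2 probe that was printed 10 times, for each spot on each of the 4 arrays, as log2 of the signal over the 75th percentile of the array; squares and bars give the mean ± SD of the unmarked spots and crosses are spots the software marked. The means were 1.44 under DMSO, 1.98 under bilberry, 1.86 under delphinidin and 1.33 under cyanidin.

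The probes of Acta2 did not give the same ratios. With delphinidin the bright probe gave -0.01 and the repeated probe 0.41, a gap larger than the software's error of either ratio. Another, dim probe at chr19:34307204-34307263, with signals from 20.4 to 49.2, gave -0.19 under bilberry, 0.27 under delphinidin and -0.28 under cyanidin. The bilberry value turns to 2.08 under normexp with an offset of 50 and to 0.34 when normexp is refitted without marked backgrounds. The remaining 2 probes did not pass the background test on any array. Whether the probes read different transcript ends was not tested, since no mm8 annotation was used here.

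Actg2, the smooth muscle γ-actin, had 1 probe at chr6:83488517-83488843. Its signals were 1289 under DMSO, 715 under bilberry, 1361 under delphinidin and 1226 under cyanidin, and its levels 0.58, 0.31, 0.43 and 0.27. DMSO was the highest of the 4. The ratios were -0.27 under bilberry, -0.15 under delphinidin (0.11 under spike-in scaling) and -0.31 under cyanidin.

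Tagln, which encodes the actin-binding protein transgelin (SM22α), had the widest range of the 9 genes with an unmarked value on all arrays after 75th percentile scaling (2.10), but with spike-in scaling its range was the narrowest, at 0.55, and under normexp with an offset of 50 that of Cnn1 was wider. Its bright probe at chr9:45681009-45681068 gave signals of 4514 under DMSO, 7547 under bilberry, 4457 under delphinidin and 3110 under cyanidin, and levels of 2.39, 3.71, 2.14 and 1.61. Bilberry was the highest array and cyanidin the lowest. The bilberry signal was also the highest before scaling, but the spike-in controls of that array read 0.95 higher than on DMSO too. The ratios were 1.32 under bilberry, -0.25 under delphinidin and -0.78 under cyanidin, a fold of 1.71 lower for the last. Over 8 processing settings the cyanidin ratio stayed between -0.85 and -0.53. The bilberry ratio came to 0.78 under normexp with an offset of 50 and to 1.31 under the refitted normexp. With spike-in scaling it turned to -0.21 and the delphinidin ratio to 0.01. Of the 8 settings, the deposited values, and for unmarked spots the setting with marked spots kept, repeat the main values by construction. The other Tagln probe, at chr9:45681828-45681887, read 11.7, 3.22, 8.52 and 11.9 and was above background on the cyanidin array only, so no fold is given for it.

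Cnn1 encodes calponin 1, the smooth muscle calponin that binds actin and tropomyosin. Its probe at chr9:21859016-21859075 was dim, with signals of 43.6 under DMSO, 21.2 under bilberry, 76.2 under delphinidin and 26.6 under cyanidin. The levels were -4.30, -4.76, -3.73 and -5.25, highest with delphinidin and lowest with cyanidin. The ratios were -0.46 under bilberry, 0.58 under delphinidin and -0.95 under cyanidin. Across the settings the delphinidin ratio kept its sign, between 0.22 and 0.84, as did the cyanidin ratio, between -0.95 and -0.47. The bilberry ratio did not, and reached 1.94 under normexp with an offset of 50 and 0.21 under the refitted normexp.

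Cnn2, the calponin found in many non-muscle cells, had a bright probe at chr10:79398169-79398228. Signals were 5562 under DMSO, 4725 under bilberry, 6658 under delphinidin and 6977 under cyanidin, and levels 2.69, 3.04, 2.72 and 2.78. Bilberry was the highest, with a ratio of 0.34 that turns to -1.18 with spike-in scaling and to -0.21 under normexp with an offset of 50, and that is 0.29 under the refitted normexp. Delphinidin and cyanidin were within the software's error of DMSO, at 0.03 and 0.09.

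Myl9, the regulatory light chain of myosin whose phosphorylation switches on contraction, had 1 probe at chr2:156473006-156473065. The software had marked its spot on the DMSO array for an outlying local background, and the values here keep that spot. Signals were 267 under DMSO, 226 under bilberry, 492 under delphinidin and 334 under cyanidin, and levels -1.69, -1.35, -1.04 and -1.61. DMSO was the lowest and delphinidin the highest. The ratio was 0.34 under bilberry, 0.66 under delphinidin (1.57-fold) and 0.09 under cyanidin.

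Tpm1 and Tpm2 encode α- and β-tropomyosin, which lie along the actin filament and stabilize it. The 3 probes of Tpm1 stayed within 0.5 of DMSO in every treatment. The brightest, at chr9:66822206-66822265, gave signals of 7106 under DMSO, 4207 under bilberry, 8418 under delphinidin and 9597 under cyanidin, and ratios of -0.18, 0.02 and 0.19. Its bilberry ratio was -0.70 under normexp with an offset of 50, -0.21 under the refitted normexp and -1.71 with spike-in scaling. Cyanidin was the highest array for each of the 3 Tpm1 probes, with ratios of 0.19, 0.19 and 0.42.

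The values of Tpm2 lay below DMSO in all 3 treatments. Its probe at chr4:43540378-43540528 gave signals of 6351 under DMSO, 2501 under bilberry, 6032 under delphinidin and 5542 under cyanidin. The levels were 2.88, 2.12, 2.58 and 2.45, with DMSO the highest and bilberry the lowest. The ratios were -0.77 under bilberry (1.70-fold lower), -0.30 under delphinidin and -0.44 under cyanidin, and none passed 2-fold. The bilberry ratio is past 2-fold lower under normexp with an offset of 50 (-1.20) and with spike-in scaling (-2.29), but not under the refitted normexp (-0.78). Under all 8 settings the 3 ratios stayed below 0, between -2.29 and -0.74 with bilberry, -0.33 and -0.04 with delphinidin and -0.50 and -0.19 with cyanidin. The other Tpm2 probe, whose spots were marked on the DMSO, bilberry and delphinidin arrays for an outlying local background, gave -0.85, -0.30 and -0.45 with those spots kept.

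Tagln and Tpm2 thus lay on opposite sides of DMSO on the bilberry array after 75th percentile scaling. The difference between their bilberry ratios was 2.09, and a factor applied to a whole array cannot move it. Over the 8 settings it ran from 1.97 to 2.09, but only the normexp fits and quantile normalization could change it. It was 0.06 with delphinidin and -0.34 with cyanidin. Set against the bright probe of Acta2, Tagln was 1.10 higher with bilberry, 0.23 lower with delphinidin (-0.23) and 0.66 lower with cyanidin (-0.66). These pairs of genes were chosen after their values were seen.

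Cald1 encodes caldesmon, which blocks the actin and myosin interaction and stabilizes filaments, and its 2 probes disagreed on the bilberry array. The probe at chr6:34683627-34683686 gave 681 under DMSO, 478 under bilberry, 1238 under delphinidin and 1024 under cyanidin, and the probe at chr6:34703991-34704050 gave 823, 401, 1164 and 1045. Delphinidin was the highest for both. The bilberry ratio was 0.07 for the first probe and -0.46 for the second, the delphinidin ratio 0.63 and 0.27 and the cyanidin ratio 0.35 and 0.11. The delphinidin and cyanidin ratios of both probes kept their sign under all 8 settings.

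Srf, the transcription factor itself, had a range of 0.22 over the 4 arrays, the narrowest of the 9 genes with unmarked values after 75th percentile scaling, and of 1.57 with spike-in scaling, where 3 genes had a narrower one. Its probe, of which the files list 8 bases at chr17:46010028-46010035, gave signals of 3691 under DMSO, 2736 under bilberry, 4118 under delphinidin and 4169 under cyanidin. The ratios were 0.15, -0.07 and -0.06, each within the software's error, and each changes sign with spike-in scaling. The bilberry ratio also turns to -0.29 under normexp with an offset of 50 and to -0.02 under quantile normalization, but is 0.15 under the refitted normexp.

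**Figure D3:**
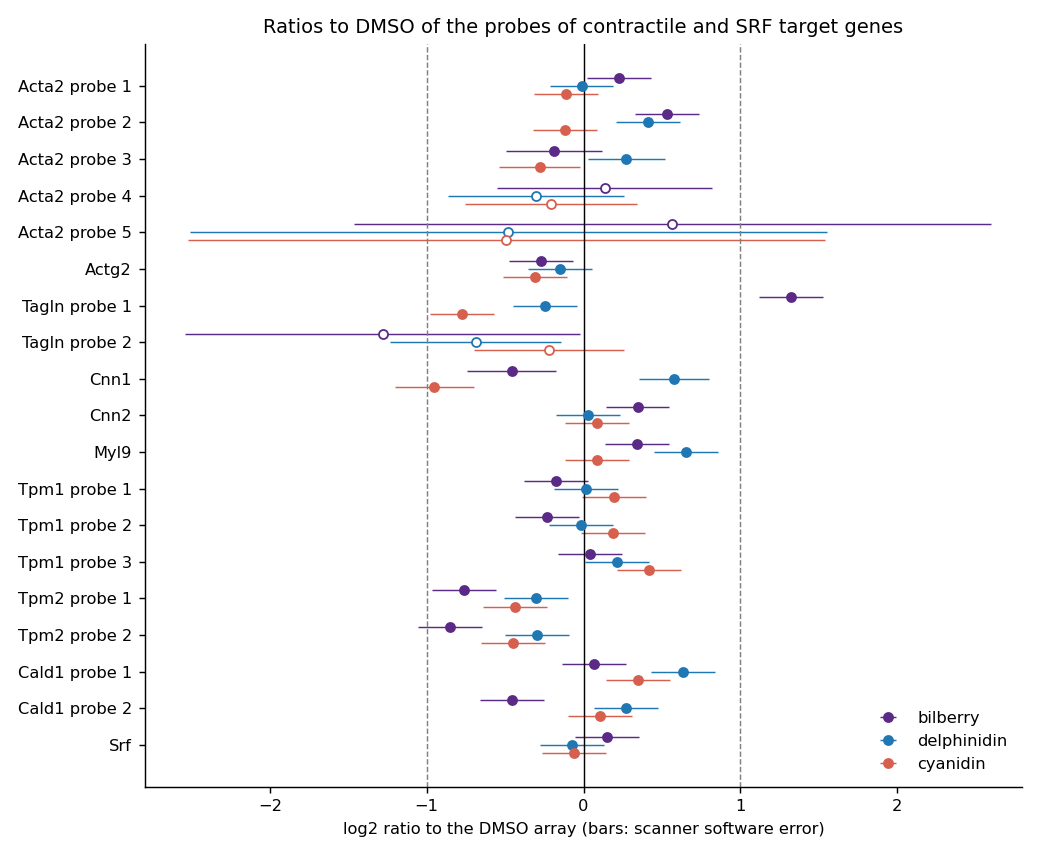
Log2 ratio to the DMSO array of all 19 probes for bilberry, delphinidin and cyanidin; bars show the scanner software's error, open circles are probes that missed the background test on some array and the dashed lines mark 2-fold. Tagln probe 1 with bilberry, at 1.32 (-0.21 with spike-in scaling), was the filled point past 2-fold.

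Over the 14 probes well above background with unmarked spots on every array, 7 were above 0 and 7 below with bilberry. Their median was -0.07 and their range -0.77 to 1.32. With delphinidin, 8 were above and 6 below, with a median of 0.02 and a range of -0.30 to 0.63. With cyanidin, 6 were above and 8 below, with a median of -0.09 and a range of -0.95 to 0.42. With spike-in scaling 0 of 9 genes were above 0 with bilberry, 8 of 9 with delphinidin and 5 of 9 with cyanidin. After 75th percentile scaling, probes with ratios within 0.5 of DMSO numbered 11, 12 and 12. Taken by 1 probe a gene for the 9 genes with an unmarked value on all arrays, the medians were 0.07 under bilberry, -0.01 under delphinidin and -0.11 under cyanidin, beside 0.16, -0.02 and 0.01 for the 13005 genes that passed the background test on all 4 arrays and 0.36, -0.14 and -0.13 for all 21831 named genes.

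Delphinidin and cyanidin are anthocyanidins that differ by an additional hydroxyl group on the B ring of delphinidin. They were given at the same dose and day, and this was the 1 compound pair compared. With 1 array each, no test or interval of a difference between cultures can be given. Cnn1 was 2.88-fold higher with delphinidin than with cyanidin (1.53 on the log2 scale, software error 0.24) and was the only probe of the 19 past 2-fold. Of all probes, 3.55% were past 2-fold higher with delphinidin and 2.81% past 2-fold lower (0.672% and 0.504% of those well above background on both arrays). Under normexp correction the Cnn1 difference was as low as 0.69 and no longer passed 2-fold, but its sign held in all 8 settings.

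Other differences between the compounds were smaller. Delphinidin was higher by 0.57 for Myl9, by 0.53 for Tagln and by 0.53 for the repeated Acta2 probe, whose spots ran from 0.50 to 0.58. The bright Acta2 probe differed by 0.10. Cnn2 differed by -0.06 and Srf by -0.01, both within the software's error. Of the 14 probes above background with unmarked spots on every array, 9 were higher with delphinidin and 5 with cyanidin. Their median difference was 0.15, beside a median of -0.03 over genes above background. With Myl9 and the marked Tpm2 probe kept, 11 of 16 were higher with delphinidin and 5 with cyanidin (median 0.16).

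The 4 other actins, the non-muscle β- and γ-actins and the skeletal and cardiac α-actins, had no probe of 6 past 2-fold in any treatment. Past 2-fold higher and lower were 6.49% and 7.41% of all probes with bilberry, 2.64% and 4.26% with delphinidin and 2.18% and 5.23% with cyanidin, the background for the lists that follow too. Their median ratio was 0.62 under bilberry (-0.91 with spike-in scaling), 0.18 under delphinidin and 0.18 under cyanidin. Actg1, the cytoplasmic γ-actin, gave 0.68 with bilberry by 1 probe and 0.63 by another. Under normexp with an offset of 50 these were 0.01 and -0.02, and with spike-in scaling -0.85 and -0.90. The 0.68 was 0.29 under quantile normalization and 0.61 under the refitted normexp. Actb, the β-actin that served as the reference gene of the study's RT-PCR, gave 0.70 under bilberry, -0.10 under delphinidin and -0.07 under cyanidin by a probe printed 10 times, and 0.99, -0.00 and -0.09 by its brightest probe, which the files place on the X chromosome. The 0.99 becomes 1.01, past 2-fold, when arrays are scaled to the median of the probes well above background. It falls to 0.72 under quantile normalization and to 0.36 under normexp with an offset of 50, and is 0.94 under the refitted normexp. With spike-in scaling these Actb values become -0.82 and -0.54 with bilberry. Relative to the repeated Actb probe, Tagln stood at 0.62 with bilberry, Acta2 at -0.48 and Tpm2 at -1.47, and relative to the brightest Actb probe at 0.34, -0.76 and -1.75, values that no scaling factor of an array can move.

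Among 6 SRF cofactors (12 probes), 2 probes passed 2-fold higher and none lower with bilberry, none passed with delphinidin, and 1 was higher and 1 lower with cyanidin. Over all probes the background was 6.49% higher and 7.41% lower for bilberry, 2.64% and 4.26% for delphinidin and 2.18% and 5.23% for cyanidin. The median was 0.37, -0.24 and -0.21. Myocd, the muscle cofactor myocardin, and the ternary complex factor Elk1 did not pass the background test on any array. Both count in these medians, and the probe past 2-fold lower with cyanidin was that of Myocd (-1.29). Mrtfa, Mrtfb, Elk3 and Elk4 passed the test on all arrays. With bilberry, delphinidin and cyanidin, Mrtfa gave 0.41, -0.20 and -0.01, Mrtfb 0.46, 0.17 and 0.31 and Elk4 0.33, -0.06 and 0.08. Elk3, another ternary complex factor, gave -0.27 under bilberry, -0.57 under delphinidin and -0.41 under cyanidin.

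Of 14 probes for 10 immediate early genes that SRF switches on within minutes of serum, 2 were past 2-fold higher with bilberry and none lower, where the background over all probes was 6.49% and 7.41%. None passed in the other treatments, with a background of 2.64% higher and 4.26% lower for delphinidin and 2.18% and 5.23% for cyanidin. The median was 0.43 under bilberry, 0.07 under delphinidin and 0.04 under cyanidin. Egr3, an early growth response factor, was at 1.54 under bilberry, 0.60 under delphinidin and 0.87 under cyanidin, from a dim probe whose bilberry ratio is 0.01 with spike-in scaling, 0.81 under the refitted normexp and 2.36 under normexp with an offset of 50. Under both normexp fits its delphinidin value was 0.05 and its cyanidin value 0.11. The cyanidin value was past 2-fold higher under quantile normalization (1.07) and with spike-in scaling (1.11). Its other probe was well above background on 1 array, so no ratio is given for it. Junb, a subunit of the AP-1 factor, stood at -0.02, -0.66 and -0.46, and its second probe at 0.06, -0.67 and -0.52. The bilberry values were -0.59 and -0.55 under normexp with an offset of 50 and -0.28 and -0.18 under quantile normalization. Under the refitted normexp the first was -0.01.

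Of 20 further cytoskeletal SRF targets, 19 had a value, from 41 probes. With bilberry, 3 probes were past 2-fold higher and 2 lower, with delphinidin 3 were lower, and with cyanidin 1 was lower, beside a background over all probes of 6.49% higher and 7.41% lower, 4.26% lower and 5.23% lower. The median was 0.19, -0.12 and 0.02. Fhl1, a LIM-domain protein of muscle and fibroblasts, stood at -1.06 under bilberry, -1.27 under delphinidin and -0.88 under cyanidin, and its bilberry value did not pass 2-fold under normexp with an offset of 50 (-0.11), the refitted normexp (-0.82) or quantile normalization (-0.99). Flna, the actin crosslinker filamin A, stood at 0.60 under bilberry, 0.17 under delphinidin and 0.12 under cyanidin, and the first of these turns to -0.93 under spike-in scaling and to -0.07 under normexp with an offset of 50, and is 0.53 under the refitted normexp.

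The myosins with their kinase and phosphatase, 8 genes on 15 probes, had 5 probes past 2-fold lower with bilberry, where the background over all probes was 7.41%, and none higher, and 1 lower with each anthocyanidin (background 4.26% and 5.23%). The latter was a Mylk probe that was above background on 0 arrays. The median was -0.03, -0.10 and -0.12. Mylk, the kinase that phosphorylates Myl9, gave -1.11 under bilberry, -0.81 under delphinidin and -0.26 under cyanidin, and a second probe -1.13, -0.78 and -0.22. Ppp1r12a, the targeting subunit of the opposing phosphatase, gave -1.20 with bilberry and -0.18 and -0.16 with the anthocyanidins, and its second probe -1.22 with bilberry (0.46 under normexp with an offset of 50). Myh10, a non-muscle myosin heavy chain, gave -1.13, 0.09 and 0.03 by its brightest probe and -0.67, 0.25 and 0.34 by another. The bilberry value of the brightest probe was -0.90 under normexp with an offset of 50 and -1.03 under the refitted normexp. Myl6, the essential light chain, gave 0.40 (-0.25 under normexp with an offset of 50 and -1.13 with spike-in scaling), -0.11 and -0.08.

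The list medians depended on the scaling. With spike-in scaling the bilberry median was below 0 for all 5 lists, at -0.91 for the other actins, -1.16 for the cofactors, -1.10 for the immediate early genes, -1.34 for the cytoskeletal targets and -1.56 for the myosins. Under normexp with an offset of 50 it moved up for 2 lists, to 1.57 for the cofactors and 0.81 for the other actins, and down for the other 3, to -0.0081 for the immediate early genes, -0.18 for the cytoskeletal targets and -0.67 for the myosins. Under the refitted normexp it was 0.58 for the other actins, 0.45 for the cofactors and 0.39 for the immediate early genes. In that refit it was 0.22 for the cytoskeletal targets and -0.08 for the myosins. The delphinidin median of the immediate early genes turned to -0.07 under both normexp fits. With spike-in scaling the delphinidin medians of the cofactors, cytoskeletal targets and myosins turned to 0.02, 0.14 and 0.16 and the cyanidin medians of the cofactors and myosins to 0.03 and 0.12. Under quantile normalization the cyanidin medians turned to 0.03 for the cofactors, -0.03 for the immediate early genes and -0.04 for the cytoskeletal targets. The bilberry medians were then 0.49 for the other actins, 0.15 for the cofactors and 0.23 for the immediate early genes. They were 0.01 for the cytoskeletal targets and -0.28 for the myosins. Under both normexp fits the medians of the other actins were 0.04 with delphinidin and 0.03 with cyanidin.

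**Figure D4:**
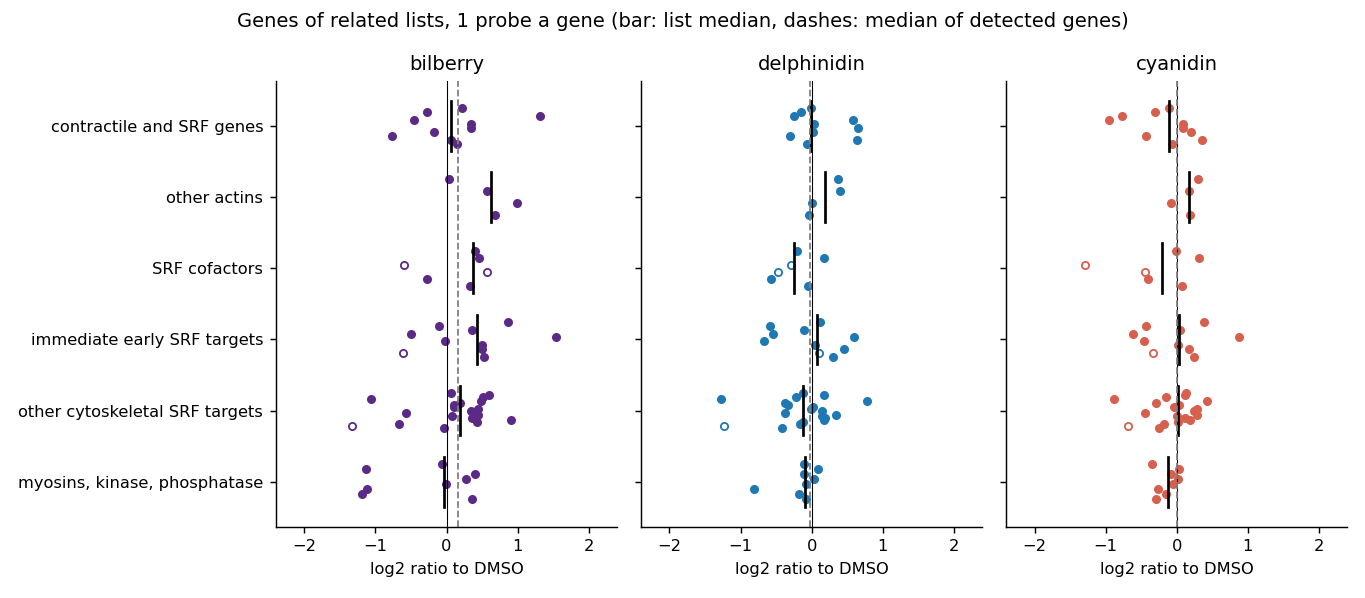
Log2 ratio to DMSO of the 10 genes and of 5 related gene lists, 1 probe a gene, for bilberry, delphinidin and cyanidin; open circles are genes that missed the background test on some array, bars are list medians (over 9 genes for the first line, leaving out Myl9) and the dashed line is the median of the genes well above background. Among the myosins with their kinase and phosphatase, Ppp1r12a stood at -1.20, Myh10 at -1.13 and Mylk at -1.11 with bilberry.

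The labels call the cells adipocytes. All 6 adipocyte markers and all 5 preadipocyte and fibroblast markers passed the background test on all 4 arrays, and none of the 4 endothelial markers was on any array. Of the smooth muscle markers, 4 had a value. Des and Lmod1 passed that test on all arrays, Myh11, the smooth muscle myosin heavy chain, on 3 and Myocd on none. The summed scaled signal of the smooth muscle markers was 0.239 under DMSO, 0.161 under bilberry, 0.169 under delphinidin and 0.265 under cyanidin. Their median ratios were -0.68, -0.36 and -0.10 in the 3 treatments. With bilberry 1 of the 4 was above 0, with delphinidin 0 and with cyanidin 2. The brightest genes weigh most in such sums. The sum of the adipocyte markers was 385, 262, 420 and 455 in the same order and that of the preadipocyte and fibroblast markers 232, 237, 210 and 180. With bilberry, 3 of the 6 adipocyte markers were above 0 and 3 below, with Adipoq at -1.07, Fabp4 at -0.95 and Plin1 at 0.39, and 2 of the 5 preadipocyte and fibroblast markers were above 0 and 3 below, with Col1a1 at 0.42 and Thy1 at -1.20. The list medians with bilberry were -0.17 and -0.12. With cyanidin, 5 of the 6 adipocyte markers were above 0 (median 0.37) and 5 of the 5 preadipocyte and fibroblast markers below 0 (median -0.26), and with delphinidin 4 and 2 were above 0 (medians 0.18 and -0.15). The part of such differences in the ratios of the contractile genes was not tested. Skeletal muscle markers summed to between 0.0158 and 0.0705 with none of 4 above background on all arrays. Endothelial markers summed to between 0.0154 and 0.0273, and macrophage markers to between 0.0912 and 0.120 with 2 of 4, Cd68 and Csf1r, above background on all arrays.

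The genes whose 3 ratios lay closest to those of Tagln, by Euclidean distance over 12996 candidate genes outside the group that were detected well above background throughout, were 1700006J14Rik at 0.17, Ccdc55 at 0.19, Vwa5b2 at 0.21, Casp14 at 0.23 and Grin2d at 0.24. Grin2d gave 1.19 under bilberry, -0.08 under delphinidin and -0.66 under cyanidin. Likeness over 3 ratios that share 1 DMSO array describes these 4 arrays only.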

How the data were processed

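RNA was labeled with 1 dye and hybridized by the authors, who deposited the scanner output as intensity values per spot (Feature Extraction 9.5.1.1, per the file headers). These values are after its local background subtraction and spatial detrending, and the deposited series table held the same intensity values. The 10 genes, the related lists and the settings were chosen with earlier results of these data known. Here the processed signal was divided by the 75th percentile over non-control spots of its array and converted to log2, and marked spots were left out except where stated. Spots of a probe were averaged. A probe was called past 2-fold by its ratio, the fold the study used, with no detection filter. The deposited values included no ratio or percent, and both were computed here. A gene was represented by its brightest probe with a value on all 4 arrays. Named outside the 10 genes were, per list, the brightest gene and at most 3 genes past 2-fold and well above background on all arrays. The SRF cofactors, Actb, the marker genes and the 5 genes nearest to Tagln were named besides. Coordinates of probes are those of the files, on mm8. Names were updated through RefSeq accessions for 24375 probes. The alternatives were normexp with an offset of 50, the same fitted without marked backgrounds, quantile normalization, the median of detected probes, spike-in scaling, marked spots kept, the deposited table, a detection filter, folds of 1.5 and 3, and the mean over probes. The calculations were tested on simulated data. R 4.3.3, limma 3.58.1, Python 3.11.15, numpy 2.4.6, pandas 2.3.3 and matplotlib 3.10.9 were used. A further gene list of the design is not reported here. The RT-PCR, western blot and lipid staining were not analysed here.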

Additional observations from a re-analysis of the deposited data

How the results depend on the processing

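No paired analysis was possible because each condition had 1 array. For the 10 genes, the 1 probe past 2-fold higher with bilberry became 5 under normexp with an offset of 50, of which 0 were the original call and all were Cnn1 or probes of Acta2 and Tagln other than the bright ones, and 0 under spike-in scaling and at 3-fold, and the 1 probe past 2-fold lower became 14 under spike-in scaling, 2 at 1.5-fold and 0 under the refitted normexp, the detection filter and 3-fold. Under normexp with an offset of 50 it stayed at 1 but was Tpm2 (-1.20) in place of the dim Tagln probe, which was then among the 5 higher. In that normexp fit the background mean was -345 on the bilberry array, against -5.65 in the refit. At 1.5-fold, 1 probe was higher and 1 lower with delphinidin and 2 were lower with cyanidin. The Cnn1 call of delphinidin over cyanidin was lost (0 probes) under both normexp fits and at 3-fold. The median of the genes with bilberry moved from 0.07 to -0.28 under normexp with an offset of 50, 0.15 under its refit, -0.021 under quantile normalization, -1.46 under spike-in scaling and -0.12 with the mean over probes. With delphinidin it moved from -0.01 to 0.25 under spike-in scaling, and with cyanidin from -0.11 to 0.13 under spike-in scaling, -0.17 under quantile normalization and -0.24 with the mean over probes. Tagln with bilberry was reversed to -0.21 under spike-in scaling. The cause was not tested. Under quantile normalization the median over all probes moved by -0.12, 0.11 and 0.14 with bilberry, delphinidin and cyanidin, and under normexp with an offset of 50, with bilberry, by 1.15. Dim probes such as that of Cnn1 are limited by their signal over background.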
